A study of Mus musculus with 6 samples.

Results

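The RNA-Seq values of 10 genes of the RET and FGF signaling route were examined in mouse primary renal tubular epithelial cells (TECs) after Sox9 knockdown. The genes were taken by name from the 30315 genes listed in the deposited table, and all 10 were found: the ligand gene Gdnf, the receptor genes Ret and Gfra1, the ETS factor genes Etv4 and Etv5, the Sprouty genes Spry1, Spry2 and Spry4, the Spred gene Spred1 and the phosphatase gene Dusp6. They were chosen for their place in the pathway, with earlier results of these data known. Primary TECs are cells isolated from kidney tubules of C57BL/6 mice and grown in culture, and 3 libraries came from cells given siSox9, a small interfering RNA (siRNA) against Sox9, and 3 from cells given the control siRNA siNC. Both groups went through hypoxia/reoxygenation (H/R), which imitates ischemia and reperfusion in a dish: the siRNA was given 12 h before, hypoxia at 1% oxygen lasted 6 h in medium without glucose, and reoxygenation in complete medium lasted 18 h. No library without H/R and no second siRNA against Sox9 was analysed here, and the labels do not say whether the 3 samples of a group were separate cultures or animals, so that p-values measure the spread between these samples, which may be technical.

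In the embryonic kidney, GDNF made by the mesenchyme binds the co-receptor GFRA1 and the receptor tyrosine kinase RET on the tips of the ureteric bud and makes them branch. RET and FGF receptors both signal through RAS and ERK kinases, which raise the transcription factors ETV4 and ETV5, and the Sprouty and Spred proteins and the phosphatase DUSP6 are induced by the same signal and dampen it. SOX9 and its relative SOX8 are needed for ureteric branching and for normal activity of RET targets there.

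Levels are given as FPKM, fragment counts scaled to exon length and library size, as deposited by the authors. Differences were tested with limma on log2(FPKM + 1) over the 12009 genes that averaged 1 FPKM or more across all libraries, and a gene was called when its p, adjusted over all of these genes by the Benjamini-Hochberg method, was under 0.05. The pseudocount of 1 FPKM shrinks the fold changes of weakly expressed genes. Of the 12009 genes, 30.4% were called, 1532 higher (12.8%) and 2118 lower (17.6%) with siSox9, and with values centred on each library's median 1959 were higher and 1765 lower. The library sizes behind the FPKM values, recovered from these values, were 2.39e+07 to 2.57e+07 reads. On the genes that gave whole numbers, 19203872 to 20719131 reads per library were recovered. Sox9 itself was 8.87 ± 0.236 FPKM with siSox9 and 26.0 ± 0.496 FPKM with siNC (SD, n = 3 each), so that 34.2% of the control level was left. Markers of tubule epithelium were high, with Krt8, a keratin of simple epithelia, at 2123 ± 58.2 FPKM with siSox9 and 2089 ± 56.6 FPKM with siNC (SD, n = 3 each). Of these 7 markers 1 was called, Cdh16, the kidney-specific cadherin, which rose from 101 ± 2.84 FPKM with siNC to 129.7 ± 0.424 FPKM with siSox9 (SD, n = 3 each; log2 fold change 0.36, adjusted p = 0.000307 from limma). In contrast, 6 of 7 proximal tubule markers were under 1 FPKM and Slc34a1, the phosphate transporter of the proximal tubule, was listed at 0 in all siNC libraries. The 10 dividing-cell genes examined were all called lower, with summed levels of 110 to 119 FPKM with siSox9 and 162 to 165 FPKM with siNC, and the 6 macrophage markers summed to 111 to 122 FPKM and 99.6 to 107 FPKM. All 7 distal nephron markers were under 1 FPKM, the 6 listed fibroblast markers summed to 6.76 to 8.34 FPKM with siSox9 and 8.43 to 9.47 FPKM with siNC, and the 6 endothelial markers to 3.01 to 3.20 FPKM and 3.30 to 4.19 FPKM. The part of these in the results that follow was not tested, and in bulk RNA fewer cells of a type and less RNA per cell cannot be told apart.

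Of the 10 genes, Etv5 fell with siSox9 and Gdnf rose slightly, Ret, under 1 FPKM, was called lower without a filter but kept that call in 3 of 14 other settings, and Etv4, the Sprouty genes, Gfra1, Spred1 and Dusp6 did not pass the test. Etv5 stood at 73.8% of its control level, Ret at 53.7% and Gdnf at 113%. Among the 8 genes tested at 1 FPKM or more, 1 was called lower and 1 higher, and the other 6 had log2 fold changes between -0.12 and 0.10. That is 2 of 8 against 30.4% of all genes tested, and the median log2 fold change of the 8 was -0.04, against -0.01 for all genes tested. The siSox9 and siNC values were fully separated for 3 of these 8 genes, where 46.3% of all genes tested showed this. Of all 10 genes 5 were separated, where 26.5% of the 28122 genes above 0 in any library were. Those 28122 include the genes under 1 FPKM, so this share is not matched to the 10 genes, of which 8 were at 1 FPKM or more. With 3 libraries a group, the smallest p of an exact permutation test is 0.1.

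**Figure D1:**
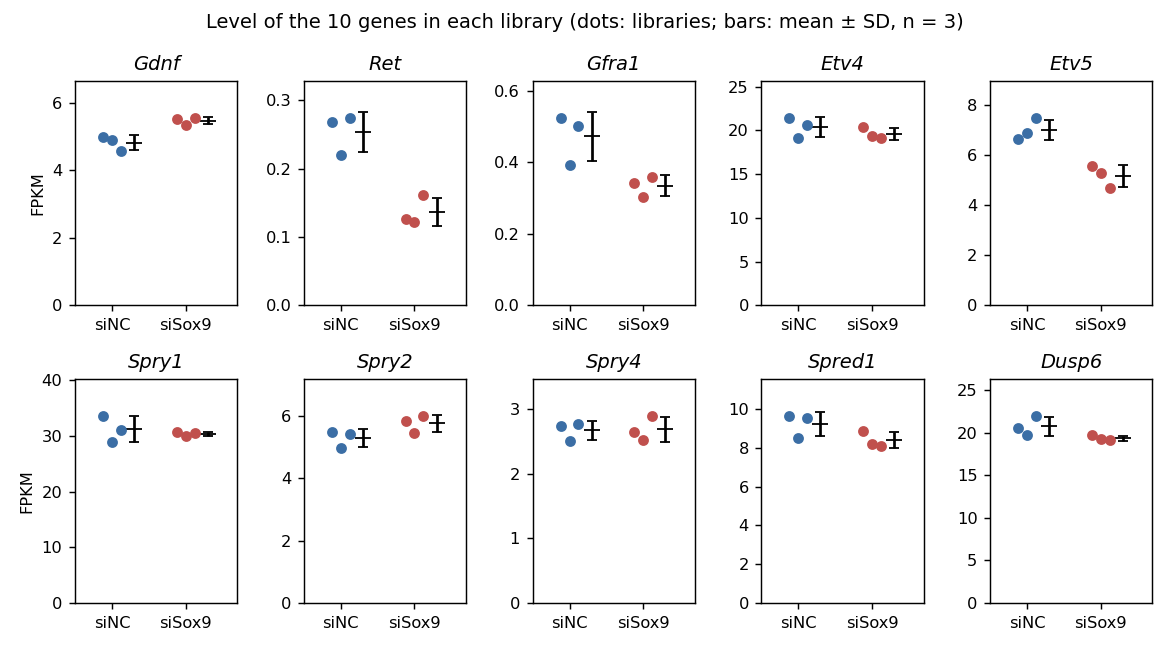
FPKM of the 10 genes in each library, with the 3 siNC libraries in blue, the 3 siSox9 libraries in red and the mean ± SD beside them; each panel has its own axis from 0. The groups stand apart for Gdnf, Ret, Gfra1, Etv5 and, by a small gap, Dusp6, and overlap for the other 5 genes.

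Ordered by level in the siNC libraries, the genes ran from Spry1 at 31.2 FPKM through Dusp6 at 20.7, Etv4 at 20.4, Spred1 at 9.21, Etv5 at 7.004, Spry2 at 5.30, Gdnf at 4.83 and Spry4 at 2.67 to Gfra1 at 0.472 and Ret at 0.254 FPKM. Neighbours whose libraries overlapped were Dusp6 and Etv4, and Spry2 and Gdnf. With siSox9 the order was the same at both ends, and Etv5 moved from rank 5 to rank 7, where its libraries overlapped those of Gdnf at rank 6. The inhibitors and ETS factors were thus present at levels well above those of Ret and Gfra1 in both groups. Within the siNC group, replicate 2 held the lowest value for 8 of the 10 genes, all but Etv5 and Gdnf, and within the siSox9 group replicate 2 was lowest for 6 and replicate 3 for 4.

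The ligand gene Gdnf (ENSMUSG00000022144, chromosome 15 from 7811011 to 7837575 in GRCm38, + strand) encodes the growth factor that activates RET. It had 5.52, 5.35 and 5.55 FPKM in the siSox9 libraries and 5.00, 4.91 and 4.58 FPKM in the siNC libraries, in the order of replicates 1 to 3. Every siSox9 library lay above every siNC library, by a gap that was small against the level. The log2 fold change was 0.15 (SE 0.04, 95% interval 0.05 to 0.25, adjusted p = 0.0357 from limma). This call held in 6 of the 16 other settings tried and was lost in the remaining 10, among them rescaling to equal sums in each library (adjusted p = 0.0881 from limma), limma voom on recovered reads (adjusted p = 0.0719) and leaving out any one library other than siNC replicate 1 (adjusted p = 0.0671 to 0.108 from limma), whereas the direction was the same in all 16.

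The receptor gene Ret (ENSMUSG00000030110, chromosome 6 from 118151745 to 118197718, - strand) was under the minimum of 1 FPKM in both groups. It had 0.126, 0.122 and 0.161 FPKM with siSox9 and 0.268, 0.220 and 0.274 FPKM with siNC. The siSox9 values came from 22, 21 and 26 reads and the siNC values from 45, 36 and 46, so the groups did not overlap, and the smallest signal taken as present, 3 reads, would be 0.0172 to 0.0186 FPKM. The depth-scaled ratio of the summed reads, 69 against 127, was 0.535, with an exact 95% interval of 0.393 to 0.722 that covers counting error only. In the limma fit without a filter, over 28122 genes of which 9.6% were called (3.97% higher and 5.63% lower), its log2 fold change was -0.14 (SE 0.03, adjusted p = 0.0479), a value held near 0 by the pseudocount of 1 FPKM. In limma voom on the recovered reads, where 22.9% of 19993 genes were called (8.94% higher and 13.9% lower), it was -0.89 (SE 0.25, adjusted p = 0.0142). The call without a filter held in 3 of its 14 other settings, which were both voom fits and the fit without a trend, with the direction the same in all 14. It was lost when any one library was left out (adjusted p = 0.0640 to 0.153 from limma), with a pseudocount of 0.1 FPKM (adjusted p = 0.1503), and with equal sums, median centring, quantile normalization or the replicate block (adjusted p = 0.0567 to 0.112 from limma).

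The co-receptor gene Gfra1 (ENSMUSG00000025089, chromosome 19 from 58235604 to 58455909, - strand) encodes the membrane-anchored protein that presents GDNF to RET. It had 0.341, 0.302 and 0.359 FPKM with siSox9 and 0.522, 0.393 and 0.4997 FPKM with siNC, from 48, 42 and 47 reads and 71, 52 and 68 reads. The groups did not overlap, and the SD was 0.0292 FPKM with siSox9 and 0.0689 FPKM with siNC. The depth-scaled ratio of the reads was 0.706 (exact 95% interval 0.563 to 0.884, counting error only). Gfra1 did not pass the test without a filter (log2 fold change -0.14, adjusted p = 0.181 from limma) or in limma voom (-0.49, 95% interval -0.91 to -0.08, adjusted p = 0.0849). It shares 416 bases of exon with an antisense gene, Gm16277, and whether the counting used strand is not given in the sources used here, so its reads may include those of the antisense gene.

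Of the ETS factor genes, Etv5 fell and Etv4 did not pass the test. Both encode transcription factors of the PEA3 group that act together downstream of RET and of FGF receptors. Etv5 (ENSMUSG00000013089, chromosome 16 from 22381309 to 22439719, - strand) had 5.55, 5.27 and 4.69 FPKM with siSox9 and 6.66, 6.89 and 7.46 FPKM with siNC, which are 586, 549 and 460 reads and 678, 683 and 761 reads. All siSox9 libraries lay below all siNC libraries, and the gap between the groups was larger than the SD within either, 0.438 FPKM with siSox9 and 0.415 FPKM with siNC. The log2 fold change was -0.38 (SE 0.06, 95% interval -0.53 to -0.23, adjusted p = 0.00504 from limma), and limma voom on the reads gave -0.44 (adjusted p = 0.000134). Etv5 passed in all 16 other settings, with values between -0.44 and -0.32.

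Etv4 (ENSMUSG00000017724, chromosome 11 from 101769742 to 101785371, - strand) had 20.35, 19.3 and 19.1 FPKM with siSox9 and 21.4, 19.1 and 20.6 FPKM with siNC. The groups overlapped, and the log2 fold change was -0.05 (95% interval -0.16 to 0.06, adjusted p = 0.459 from limma). The difference between these related genes was looked at directly, a comparison chosen after their values were seen. The ratio of Etv5 to Etv4 FPKM within a library was 0.273, 0.273 and 0.245 with siSox9 and 0.311, 0.361 and 0.362 with siNC, so that the siSox9 ratios all lay under the siNC ratios (p = 0.1 in a two-sided exact permutation test, the lowest it can give). Etv1, the remaining gene of the PEA3 group, reached at most 0.0605 FPKM in a library.

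**Figure D2:**
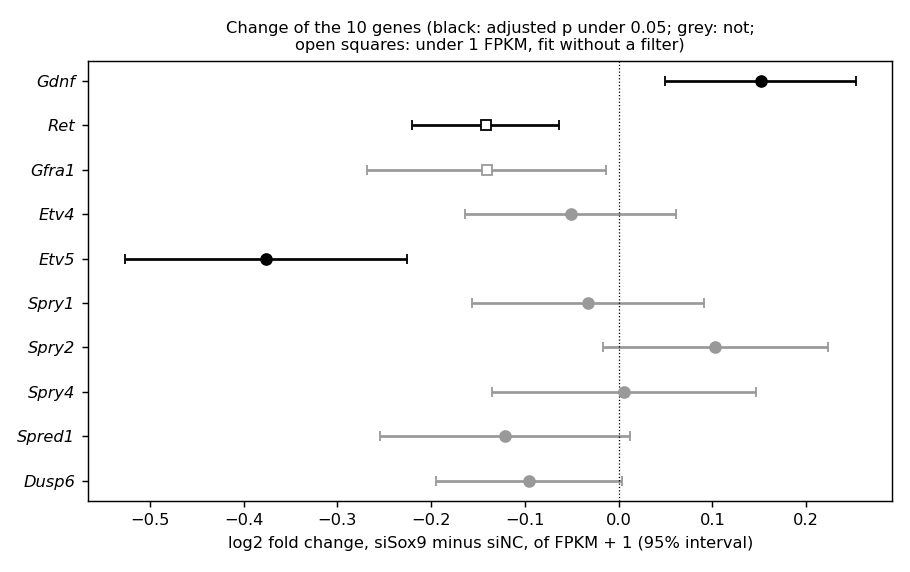
Log2 fold change of FPKM + 1 between siSox9 and siNC for the 10 genes, with 95% intervals from limma; black marks adjusted p under 0.05, grey the others, and open squares the fit without a filter used for Ret and Gfra1. Etv5 at -0.38 has the interval farthest from 0, and the intervals of Etv4, Spry1, Spry2, Spry4, Spred1 and Dusp6 include 0.

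**Figure D3:**
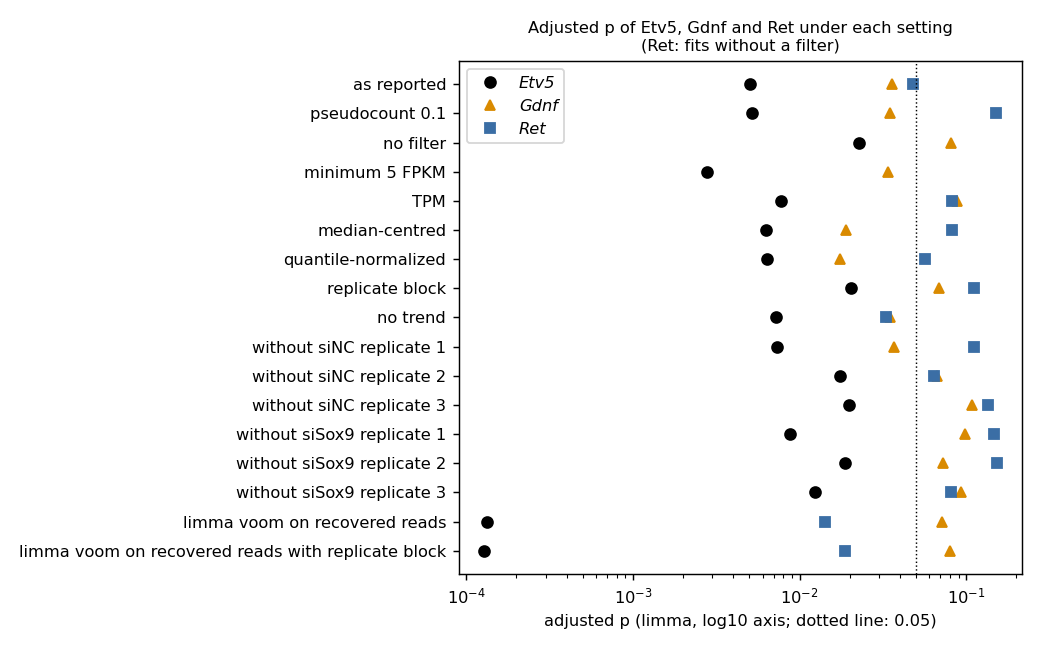
Adjusted p from limma (log10 axis, dotted line at 0.05) of Etv5, Gdnf and Ret under each setting, with Ret taken from fits without a filter. Etv5 stays left of the line in all settings, from 0.000129 to 0.0228, whereas Gdnf reaches 0.108 and Ret 0.153.

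The Sprouty proteins are membrane-associated inhibitors of receptor tyrosine kinase signaling, and SPRY1 is the one that restrains RET in the ureteric bud. Spry1 (ENSMUSG00000037211, chromosome 3 from 37639947 to 37644598, + strand) had the highest level of the 10 genes, with 30.7, 30.0 and 30.5 FPKM with siSox9 and 33.6, 28.9 and 31.1 FPKM with siNC. The siSox9 values lay inside the range of the siNC values, and the log2 fold change was -0.03 (95% interval -0.16 to 0.09, adjusted p = 0.677 from limma). Its exons share 710 bases with another annotated gene on the opposite strand, Gm42922.

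Spry2 (ENSMUSG00000022114, chromosome 14 from 105891949 to 105896819, - strand) had 5.85, 5.46 and 6.00 FPKM with siSox9 and 5.51, 4.99 and 5.42 FPKM with siNC, and 1 siSox9 library lay below the highest siNC library. Its log2 fold change of 0.10 (95% interval -0.02 to 0.22) did not pass (adjusted p = 0.168 from limma). Spry4 (ENSMUSG00000024427, chromosome 18) had 2.65, 2.52 and 2.89 FPKM with siSox9 and 2.74, 2.50 and 2.77 FPKM with siNC, with a log2 fold change of 0.01 (95% interval -0.13 to 0.15, adjusted p = 0.952 from limma). The intervals of the Sprouty genes thus reached no lower than -0.16 and no higher than 0.22 on the log2 scale, and the tests do not show that the levels were the same.

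Spred1 and Dusp6 were lower by small amounts that did not pass the test. Spred1 (ENSMUSG00000027351, chromosome 2 from 117121374 to 117182279, + strand), which encodes a Sprouty-related inhibitor of RAS activation, had 8.88, 8.17 and 8.11 FPKM with siSox9 and 9.63, 8.49 and 9.52 FPKM with siNC. One siSox9 library lay above the lowest siNC library, and the log2 fold change was -0.12 (95% interval -0.25 to 0.01, adjusted p = 0.149 from limma). Dusp6 (ENSMUSG00000019960, chromosome 10 from 99263231 to 99267489, + strand), the cytoplasmic phosphatase that inactivates ERK, had 19.7, 19.2 and 19.1 FPKM with siSox9 and 20.5, 19.8 and 21.9 FPKM with siNC. Its groups did not overlap, by a gap of less than the SD of the siNC libraries, and its log2 fold change was -0.10 (95% interval -0.20 to 0.00, adjusted p = 0.130 from limma). The other ERK phosphatases examined, Dusp4, Dusp5, Dusp7 and Dusp9, did not pass either, with log2 fold changes between 0.05 and 0.12.

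Shown here are both promoter windows of Etv5, the gene whose call held in every setting, and each window of the 10 genes that holds a match to the SOX core, which are those of Gdnf start 2, Gfra1 and Dusp6. They are the 250 bases before a RefSeq start, 5′ to 3′ on the gene's strand, in GRCm38. Capitals mark matches on either strand to ACAAT, the core of the sites bound by SOX proteins, and to CCGGAA, a site of ETS factors; no 2 matches share bases in these windows.
Etv5 start 1, chr16:22439571-22439820, - strand: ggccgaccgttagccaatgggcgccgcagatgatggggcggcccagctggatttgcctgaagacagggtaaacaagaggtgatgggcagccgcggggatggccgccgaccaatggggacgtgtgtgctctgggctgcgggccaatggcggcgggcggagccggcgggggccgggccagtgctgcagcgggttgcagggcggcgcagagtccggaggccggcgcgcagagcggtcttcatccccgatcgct
Etv5 start 2, chr16:22438369-22438618, - strand: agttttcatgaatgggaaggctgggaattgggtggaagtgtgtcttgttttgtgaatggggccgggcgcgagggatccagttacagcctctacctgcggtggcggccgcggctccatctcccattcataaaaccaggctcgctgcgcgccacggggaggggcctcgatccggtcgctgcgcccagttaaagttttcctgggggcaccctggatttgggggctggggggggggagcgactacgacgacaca
Gdnf start 2, chr15:7813477-7813726, + strand: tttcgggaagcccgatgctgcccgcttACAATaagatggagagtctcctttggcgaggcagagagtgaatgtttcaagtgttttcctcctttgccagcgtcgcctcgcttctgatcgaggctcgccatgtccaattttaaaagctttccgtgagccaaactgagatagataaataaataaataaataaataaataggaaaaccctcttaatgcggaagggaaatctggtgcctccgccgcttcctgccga
Gfra1, chr19:58455399-58455648, - strand: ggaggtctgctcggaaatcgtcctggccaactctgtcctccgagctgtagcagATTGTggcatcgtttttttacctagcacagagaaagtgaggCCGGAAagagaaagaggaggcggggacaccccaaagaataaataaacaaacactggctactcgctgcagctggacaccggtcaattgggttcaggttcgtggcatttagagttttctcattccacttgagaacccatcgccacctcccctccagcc
Dusp6, chr10:99262981-99263230, + strand: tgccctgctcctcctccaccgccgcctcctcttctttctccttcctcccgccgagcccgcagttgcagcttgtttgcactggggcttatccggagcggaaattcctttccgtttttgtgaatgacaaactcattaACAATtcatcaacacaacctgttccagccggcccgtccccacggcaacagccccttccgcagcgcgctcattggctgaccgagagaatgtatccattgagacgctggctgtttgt

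RefSeq windows were found for 7 of the 10 genes, 9 windows in all, and for Ret, Etv4 and Spry4 none was used here. ACAAT or its reverse complement ATTGT stood in 3 of the 9 windows, those of Gdnf start 2, Gfra1 and Dusp6 shown above at 223, 197 and 115 bases before the start, where 27.7% of all 32851 windows of this length hold it. CCGGAA or TTCCGG stood in the Gfra1 window only, and 12.0% of all windows hold it. Neither Etv5 window held these letters, nor did the window of Gdnf start 1 (chr15:7809798-7810047) or those of Spry1, Spry2 and Spred1. A match is a description of the letters and not a bound site, and no binding was measured in these libraries.

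The remaining genes of the route were described from lists of ligands, receptors, adaptors, kinases, inhibitors and targets. Without the 10 genes and Sox9, 57 of the 88 listed averaged 1 FPKM or more, and of these 5 were called higher and 9 lower, with a median log2 fold change of -0.04. This is 14 of 57, beside 30.4% of all genes tested. The groups did not overlap for 25 of the 57 genes, beside 46.3% of all genes tested.

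Of 18 FGF ligand genes listed, 4 were at 1 FPKM or more and 2 of these fell, beside 17.6% of all genes tested. Fgf13, which encodes an intracellular FGF homologue that is not secreted and binds sodium channels, had 2.73, 2.91 and 2.65 FPKM with siSox9 and 4.81, 5.07 and 4.84 FPKM with siNC (log2 fold change -0.65, adjusted p = 0.000168 from limma). Fgf1, a secreted ligand that binds all FGF receptors, had 2.17, 2.32 and 2.098 FPKM with siSox9 and 3.64, 3.55 and 3.58 FPKM with siNC (log2 fold change -0.52, adjusted p = 0.000441 from limma). Both groups of libraries were tight, and the siSox9 libraries lay well below the siNC libraries for both genes. Fgf7 and Fgf18 did not pass, and Fgf10, the mesenchymal ligand of ureteric branching, reached at most 0.0253 FPKM in a library.

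Of the FGF receptor genes, Fgfr1 (9.52 ± 0.882 FPKM with siSox9 and 9.33 ± 0.261 FPKM with siNC; SD, n = 3 each) and Fgfr2 (3.31 ± 0.105 and 3.70 ± 0.146 FPKM) did not pass the test. In limma voom on recovered reads Fgfr2 was called lower (log2 fold change -0.16, adjusted p = 0.0403). Its exons share 314 bases with Ctbp2 on the same strand, so strand could not separate reads there. Fgfrl1, which encodes a receptor without a kinase domain, fell from 16.8 ± 0.955 FPKM with siNC to 12.3 ± 0.595 FPKM with siSox9 (SD, n = 3 each; log2 fold change -0.41, adjusted p = 0.00149 from limma). Fgfr4, named after its values were seen, was under 1 FPKM, with 17, 21 and 12 reads in the siSox9 libraries and 59, 72 and 50 in the siNC libraries. It passed without a filter (adjusted p = 0.0119 from limma) and in limma voom on the reads (log2 fold change -1.86, adjusted p = 8.39e-05), and it and Ret were the genes of all these lists under 1 FPKM that did so.

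Of the 10 adaptor genes tested, 1 rose and 1 fell, beside 12.8% and 17.6% of all genes tested. Frs2, the docking protein of FGF receptors, had 5.99 ± 0.206 FPKM with siSox9 and 7.34 ± 0.529 FPKM with siNC (SD, n = 3 each; log2 fold change -0.25, adjusted p = 0.0122 from limma). The call was lost when libraries were rescaled to equal sums (adjusted p = 0.0626 from limma). Plcg1, the phospholipase recruited by these receptors, rose by 0.13 (adjusted p = 0.0483 from limma), and this call was lost without a filter (adjusted p = 0.0957) and in 8 other settings. Of the kinases of the RAS and ERK cascade, Mapk3, Map2k1 and Braf did not pass. Exons of Plcg1 share 379 bases with Zhx3, and reads there cannot be told apart without strand.

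Among the inhibitors outside the 10 genes, Sulf2 fell and Rasa1 rose. Sulf2, a sulfatase that trims heparan sulfate and with it the binding of FGFs to their receptors, had 19.7 ± 0.812 FPKM with siSox9 and 26.7 ± 0.866 FPKM with siNC (SD, n = 3 each; log2 fold change -0.42, adjusted p = 0.000515 from limma). Its exons share 154 bases with Ncoa3 on the opposite strand. Rasa1, a GTPase-activating protein that turns RAS off, had 13.3 ± 0.352 and 11.5 ± 0.157 FPKM (SD, n = 3 each; log2 fold change 0.20, adjusted p = 0.00458 from limma). None of the 6 Sprouty and Spred genes tested and none of the 5 ERK phosphatases passed in limma on log2(FPKM + 1). Of all genes tested there, 30.4% passed. Of the genes known as RET targets in ureteric tips, Wnt11, Met and Mmp14 did not pass, with log2 fold changes of -0.11, 0.05 and 0.05.

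**Figure D4:**
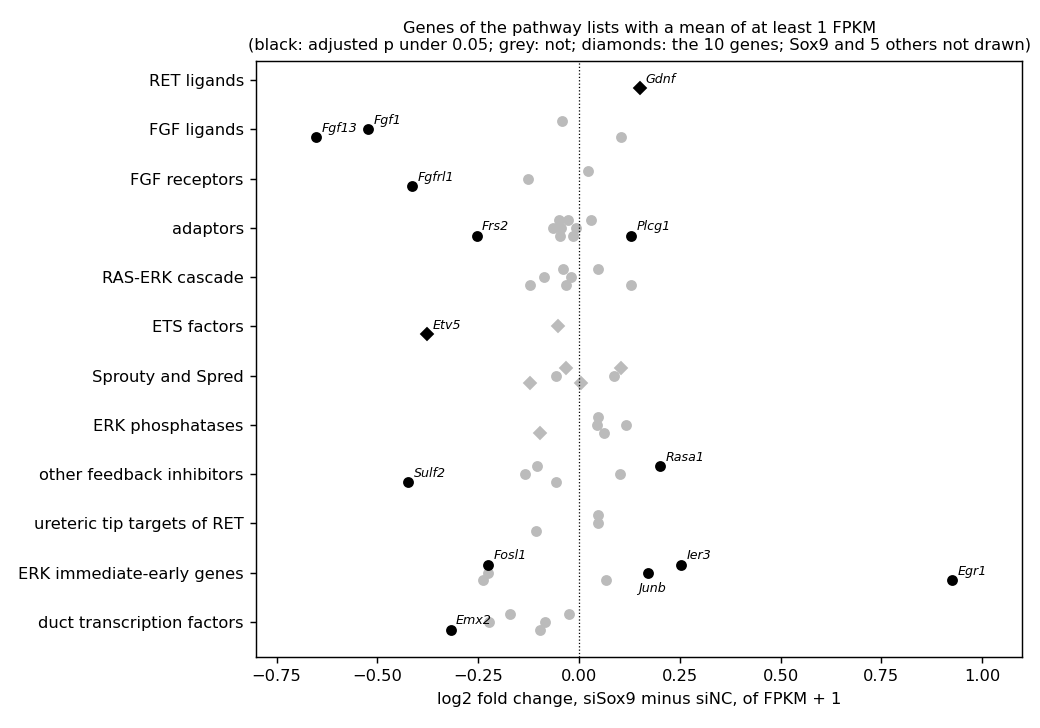
Log2 fold change of FPKM + 1 between siSox9 and siNC for the genes of each list that were tested; each point is a gene, black where the adjusted p from limma was under 0.05 and grey where not, and diamonds are the 10 genes described, with Sox9 and 5 other genes not drawn. The Sprouty, Spred and phosphatase genes lie between -0.12 and 0.12 with none called, and among the genes drawn Fgf13 and Fgf1 lie farthest to the left, with Egr1 at 0.92 farthest to the right.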

How the data were processed

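The 6 RNA-Seq libraries came from mouse primary renal TECs after H/R, 3 given siSox9 and 3 given siNC. Per the labels and headers the deposited values are FPKM, 1 per gene in each library, with no other scaling stated. The submitters' processing notes name HISAT2 2.1.0, Bowtie2 2.2.3, TopHat2 and mm9 without their roles; the counting tool and annotation are not given in the sources used here, and 93.3% of the 30246 genes found in GENCODE M21 have the same position there, in GRCm38. The siSox9 columns are named for a non-control siRNA, and the labels hold siSox9 alone beside siNC. All per-sample columns were used.

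The 10 genes and the gene lists were chosen with earlier results of these data known. Tests used limma 3.58.1 in R 4.3.3 (lmFit, eBayes with trend) on log2(FPKM + 1), for genes averaging 1 FPKM or more, with no replicate block, since the study names an unpaired test. Genes under the minimum were read from the fit without it. Named beside the 10 genes and Sox9 were, of each list, at most 4 genes that passed and whose groups did not overlap; a few genes of the lists are counted but not reported singly here. Reads were recovered from the FPKM worth of a single read, given GENCODE M21 exon lengths: 27941 genes gave whole reads, to within 0.02, in every library. Gdnf, Spry2 and Spry4 did not, and came out whole with another length. Recovered reads, rounded, entered limma voom for genes with at least 10 reads in all, an alternative chosen after seeing the data. Depth did not separate the groups. Between libraries of a group the mean chi-square of reads per gene was 1.86 to 6.74, where sampling noise alone gives about 1, so none was a copy of another. The highest values, 6.30 and 6.74, were those of siNC replicate 1 with siNC replicates 2 and 3, which gave 2.62 with each other. Intervals of read ratios cover counting error only.

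Limma's test was tested on simulated reads of the real genes with 200 changed: of 97 tested genes changed by 1 on the log2 scale it called 93, of 99 changed by 0.5 it called 90, and of 11674 unchanged genes it called 11. The simulated reads had the same small dispersion for every gene. These rates therefore do not carry over to the real libraries, in which 30.4% of genes were called. Other steps used Python 3.11.15 with pandas 2.3.3, scipy 1.17.1 and, for plots, matplotlib 3.10.9. Promoter sequences are RefSeq's, in GRCm38.p6. The alternatives are named in the closing section.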

Additional observations from a re-analysis of the deposited data

How the results depend on the processing

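The alternatives were a pseudocount of 0.1 FPKM, no filter, a minimum of 5 FPKM, rescaling to equal sums (TPM), values centred on library medians, quantile normalization, the replicate number as a block, no trend, leaving out each replicate in turn and, chosen after seeing the data, limma voom on recovered reads without and with the block. Sox9 kept its direction and its call in all 16, with values from -1.55 to -1.42. Of the genes called among the 10, Etv5 kept its call in all 16 and Gdnf in 6 of 16. With TPM 1 of the 10 genes was called, and 1 to 2 when single replicates were left out, 1 in each case but without siNC replicate 1. Without a filter 2 were called, Ret and Etv5, and in limma voom the same 2. Over all genes, 2431 to 3653 were called when single replicates were left out, the lowest count without siSox9 replicate 2. Of the listed route genes, the 10 genes and Sox9 included, 17 were called, 6 higher and 11 lower; TPM gave 3 higher and 9 lower, and limma voom called 26. For the 14 other genes that met the rule for naming, 25 alternative values lost the call and 197 kept it. A minimum of 5 FPKM left no value for Spry4, Ret and Gfra1.

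Libraries of the same replicate number showed no clear shared deviation from their group means. The correlations of these deviations were 0.0649, -0.0504 and 0.0078 for numbers 1, 2 and 3. Both siSox9 replicate 1 and siSox9 replicate 2 correlated best with siNC replicate 1, and siSox9 replicate 3 with siNC replicate 2. With 3 libraries a group, these values cannot show whether the samples were paired. With the replicate block, 3262 genes were called, 17 of the route genes (4 higher and 13 lower) and 1 of the 10 genes, Etv5 (-0.38); limma voom with the replicate block called 28 route genes and, of the 10, Ret, Etv5 and Spred1 (adjusted p = 0.0478 for Spred1).

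Depth limits the genes under 1 FPKM: Ret rested on 21 to 46 reads a library and Gfra1 on 42 to 71, and a log2(FPKM + 1) value says little about their change.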

Other observations

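Of all genes tested, 12.8% were called higher and 17.6% lower with siSox9. Of 7 immediate-early genes that ERK signaling induces, all of which were tested, 3 rose and 1 fell with siSox9. Egr1, a zinc finger transcription factor, rose most, with 10.4, 8.98 and 9.80 FPKM with siSox9 and 4.23, 4.84 and 4.88 FPKM with siNC (log2 fold change 0.92, adjusted p = 0.00017 from limma). Ier3, an early response gene tied to cell survival, had 337 ± 9.88 FPKM with siSox9 and 282 ± 9.53 FPKM with siNC (SD, n = 3 each; log2 fold change 0.25, adjusted p = 0.00292 from limma). Junb rose by 0.17 (adjusted p = 0.0315 from limma) and Fosl1, another AP-1 subunit, fell by 0.22 on the log2 scale (adjusted p = 0.0307 from limma); without a filter neither passed, with adjusted p = 0.0935 and 0.0909. Fosl1 shares 1163 bases of exon with Ccdc85b, and Junb shares 173 with Prdx2. Fos, Ier2 and Phlda1 did not pass in limma on log2(FPKM + 1), while Phlda1 was called lower in limma voom on recovered reads (adjusted p = 0.0146).

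Of the transcription factor genes of the nephric duct and ureteric bud, 8 were tested. Beside Sox9, Emx2, a homeobox gene of the duct, fell, with 16.3, 15.9 and 16.05 FPKM with siSox9 and 18.8, 20.4 and 21.8 FPKM with siNC (log2 fold change -0.32, adjusted p = 0.00464 from limma). Emx2 shares 264 bases of exon with Emx2os on the opposite strand. Sox8, Gata3, Pax2, Pax8 and Lhx1 did not pass in limma on log2(FPKM + 1), with log2 fold changes between -0.22 and -0.03. In limma voom on recovered reads, which called 13.9% of its genes lower, Pax2 and Lhx1 were called lower (adjusted p = 0.0300 and 0.0313).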
